A study of Homo sapiens with 9 samples.

Results

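Cadherins and the proteins of the desmosome were examined in A431, an established line of squamous (epidermoid) carcinoma cells that carries endogenous mutant p53. Genes were chosen by symbol alone: every numbered CDH, DSG, DSC and PKP gene, together with DSP, JUP, CTNNA1, CTNNB1, CTNND1 and PCDH18. The rule found 40 of the 58051 genes counted, and 18 of them passed the filter on low counts. The study counted RNA in 3 libraries each of parental cells (mutp53), of Ctrl cells (mutp53), which were transfected with an empty CRISPR vector and keep their mutant p53, and of p53 KO cells, in which CRISPR removed it. All groups were grown in DMEM with 10% FBS, raised from single colonies and harvested 48 h after settling. Because each group stands for 1 line, p-values measure the spread between libraries of a line, and an effect of p53 cannot be told apart from other differences between lines.

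Classical cadherins join neighbouring epithelial cells through their extracellular domains. Inside the cell, β-catenin (CTNNB1) and α-catenin (CTNNA1) tie them to actin, and p120-catenin (CTNND1) holds them at the membrane. In desmosomes, desmogleins and desmocollins take the place of the classical cadherins, and plakoglobin (JUP), the plakophilins and desmoplakin (DSP) tie them to keratin filaments. Squamous epithelium is rich in desmosomes, and loss of E-cadherin (CDH1) with gain of N-cadherin (CDH2) is a textbook mark of a mesenchymal change.

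Promoter sequences from RefSeq (GRCh38.p14) were available for 11 of the 18 genes, as 250 bases upstream of each annotated start. They were searched for CAGGTG and its reverse complement CACCTG, the E-box bound by SNAI and ZEB repressors of E-cadherin, because several of those factors differed between the groups. The genes CDH1, CDH3, CDH13, CDH24, PKP2, PKP3 and CTNND1 had no entry. The E-box was found in 4 of the 17 windows of these genes, in DSP, JUP, DSC2 and DSG2, and it occurs in 17.5% of all 35116 windows of this length. JUP and DSC2 each have another window without it. Shown are PKP1, a gene that rose in p53 KO against both other lines, JUP, which was highest in Ctrl, and PCDH18, with the widest range. DSG2 and DSG3, which lie beside each other on chromosome 18, are shown too. Capitals mark the E-box and the sequences run 5′ to 3′ on the strand of the gene.
PKP1 (chr1:201283256-201283505, + strand): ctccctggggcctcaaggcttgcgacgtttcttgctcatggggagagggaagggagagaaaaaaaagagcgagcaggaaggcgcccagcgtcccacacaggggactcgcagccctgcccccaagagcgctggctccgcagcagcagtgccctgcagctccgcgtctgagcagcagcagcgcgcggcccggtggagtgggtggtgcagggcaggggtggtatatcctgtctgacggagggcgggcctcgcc
JUP (chr17:41785977-41786226, - strand): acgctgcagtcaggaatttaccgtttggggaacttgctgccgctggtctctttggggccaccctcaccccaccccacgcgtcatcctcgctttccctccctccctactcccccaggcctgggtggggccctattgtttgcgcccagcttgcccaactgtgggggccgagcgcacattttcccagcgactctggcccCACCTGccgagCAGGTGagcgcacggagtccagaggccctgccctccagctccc
PCDH18 (chr4:137532495-137532744, - strand): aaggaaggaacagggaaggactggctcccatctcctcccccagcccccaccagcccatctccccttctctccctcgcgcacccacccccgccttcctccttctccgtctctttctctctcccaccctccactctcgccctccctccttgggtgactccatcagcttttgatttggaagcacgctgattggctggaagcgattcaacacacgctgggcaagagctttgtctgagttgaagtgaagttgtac
DSG2 (chr18:31497927-31498176, + strand): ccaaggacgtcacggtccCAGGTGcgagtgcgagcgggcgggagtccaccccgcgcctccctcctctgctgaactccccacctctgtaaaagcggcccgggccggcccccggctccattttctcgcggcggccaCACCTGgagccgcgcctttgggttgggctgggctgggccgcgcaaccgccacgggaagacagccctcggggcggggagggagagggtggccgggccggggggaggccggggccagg
DSG3 (chr18:31447491-31447740, + strand): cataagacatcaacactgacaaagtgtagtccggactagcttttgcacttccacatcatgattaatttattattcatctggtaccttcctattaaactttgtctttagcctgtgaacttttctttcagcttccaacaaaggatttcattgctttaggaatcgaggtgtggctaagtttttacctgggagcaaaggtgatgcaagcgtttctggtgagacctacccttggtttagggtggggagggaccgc
The JUP window shown holds the motif at -54 and -43 from the start and the DSG2 window at -232 and -116. The other JUP window, at chr17:41786712-41786961, does not hold it. These letters do not occur in the PKP1, PCDH18 and DSG3 windows. The DSG2 window has 75.2% G and C and the DSG3 window 42.8%.

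Library totals ranged from 19783778 to 29840452 counts. Levels are given in CPM, which are counts scaled to library size and normalized by TMM. The squamous markers KRT5, SFN, TP63 and EGFR were expressed, whereas KRT14 had 0 to 13 counts. Of the markers of other cell types, COL1A1 had 47 to 114 counts, PMEL 20 to 43, CD68 15 to 42, LYZ 1 to 40, PECAM1 1 to 13 and VWF 0 to 13, while COL3A1, DCN, LUM, PTPRC, KDR and EMCN were at 0 in every library. The 5 leukocyte markers summed to 0.830 to 1.12 CPM for parental, 1.22 to 1.83 for Ctrl and 1.75 to 2.68 for p53 KO libraries, and the 5 endothelial markers to 0.230 to 0.385, 0.765 to 0.913 and 0.248 to 0.418 CPM; their part in the results was not tested. Ctrl replicate 1 stood apart: its gene levels deviated from the group mean with an SD of 0.254 on the log2 scale, against 0.0747 to 0.173 in the others. In it, transcripts of low GC content were low relative to transcripts of high GC content, by a median of -0.39 log2. Long transcripts were also low relative to short ones, by -0.46. The sense of the GC contrast was the same in p53 KO replicate 3 (-0.20, SD 0.133) and opposite in Ctrl replicate 3 (0.25, SD 0.173). By length, these libraries were at -0.21 and 0.30 in turn. The deviations of a gene sum to 0 within a line, so the opposite sense in Ctrl replicate 3 follows in part from Ctrl replicate 1. Between libraries of a line, the chi-square of the counts per degree of freedom was 37.8 and 49.4 for Ctrl replicate 1 against the other two, 9.34 for Ctrl replicates 2 and 3, 12.3 and 14.3 for p53 KO replicate 3, and 16.0 for parental replicates 1 and 2. By this measure p53 KO replicate 3 did not stand apart, and it was left out together with Ctrl replicate 1 only for its shared sense. Desmosomal cadherins are transcripts of low GC content, so their results are given with and without these libraries. As these were cultures, fewer cells expressing a gene and less RNA per cell cannot be told apart.

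Levels of the 18 genes were compared with one another per length. Per kilobase of exon, plakoglobin was the most abundant, at 104 ± 3.79 CPM per kb for parental, 137 ± 14.2 for Ctrl and 111 ± 7.24 for p53 KO cells (mean ± SD, n = 3). Plakophilin 3 and α-catenin followed in each line, and CDH13 and PCDH18 were lowest. E-cadherin and P-cadherin (CDH3) made up most of the cadherin RNA, DSG2 most of the desmosomal cadherin RNA and plakophilin 3 about as much as the other plakophilins together.

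**Figure D1:**
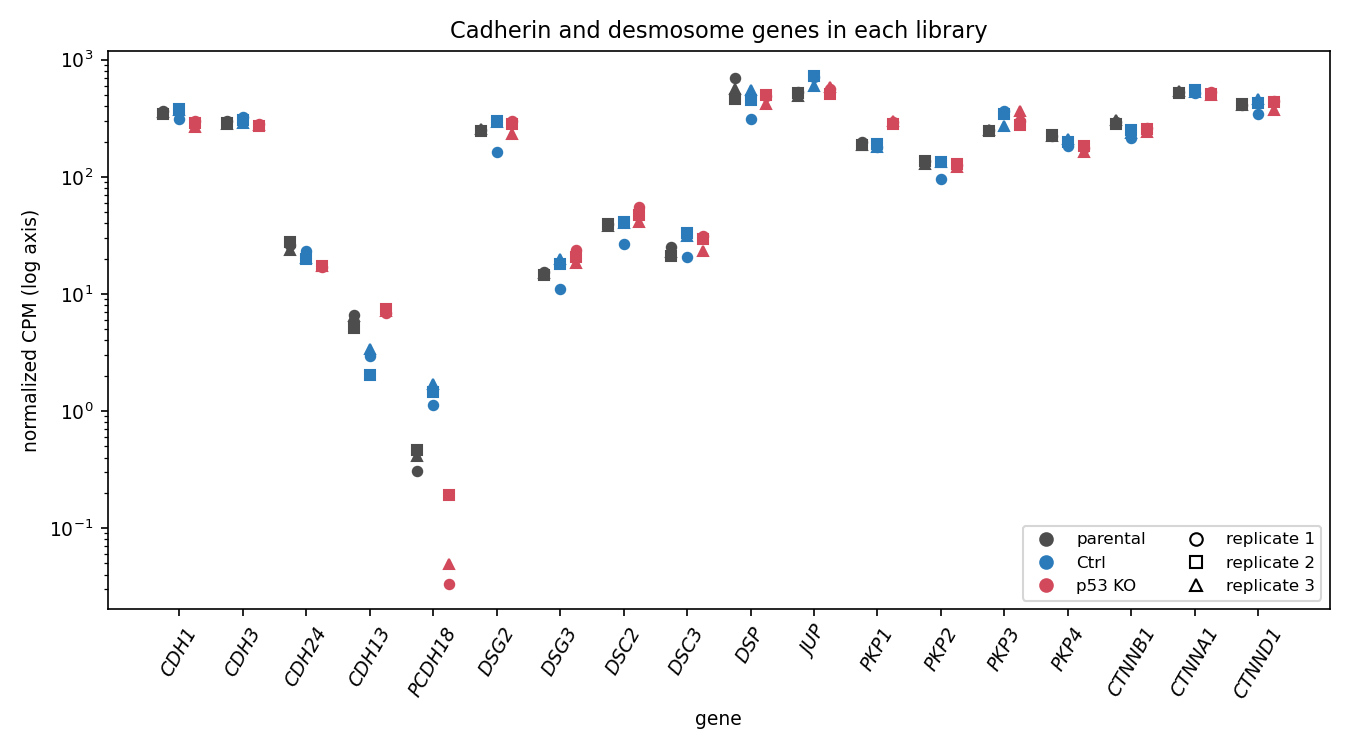
Normalized CPM on a log axis for the 18 genes that passed the filter, with 1 point per library, colour for the line and symbol for the replicate number. Most genes overlap between the lines, PKP1 is higher in the p53 KO libraries, and PCDH18 is under 2 CPM everywhere.

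Against parental cells, p53 KO cells had less CDH1, CDH24, PKP4 and PCDH18 and more PKP1. These were 5 of the 18 genes tested (27.8%) at an adjusted p of at most 0.05 by edgeR's quasi-likelihood test, where 18.1% of all 14513 genes changed. Only PCDH18 changed by more than 1.5 on the log2 scale, as did 1.95% of all genes. The median log2 fold change over the 18 genes was -0.01 and that over all genes 0.01. Against Ctrl, 6 of 18 changed (33.3%), with PKP1 and CDH13 higher and CDH1, CDH24, JUP and PCDH18 lower, beside 29.2% of all genes. PCDH18 alone exceeded 1.5, beside 3.29% of all genes. Ctrl differed from parental in 6 of 18 as well, with JUP, PKP3 and PCDH18 higher and CTNNB1, CDH13 and CDH24 lower, beside 20.3% of all genes, and PCDH18 again was the only one over 1.5 (1.94% of all genes). The 3 comparisons share libraries pairwise and are not independent. PCDH18 passed the filter through its Ctrl libraries alone, and it is also on the study's own list of genes that differed in these libraries, so its calls are not independent evidence.

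**Figure D2:**
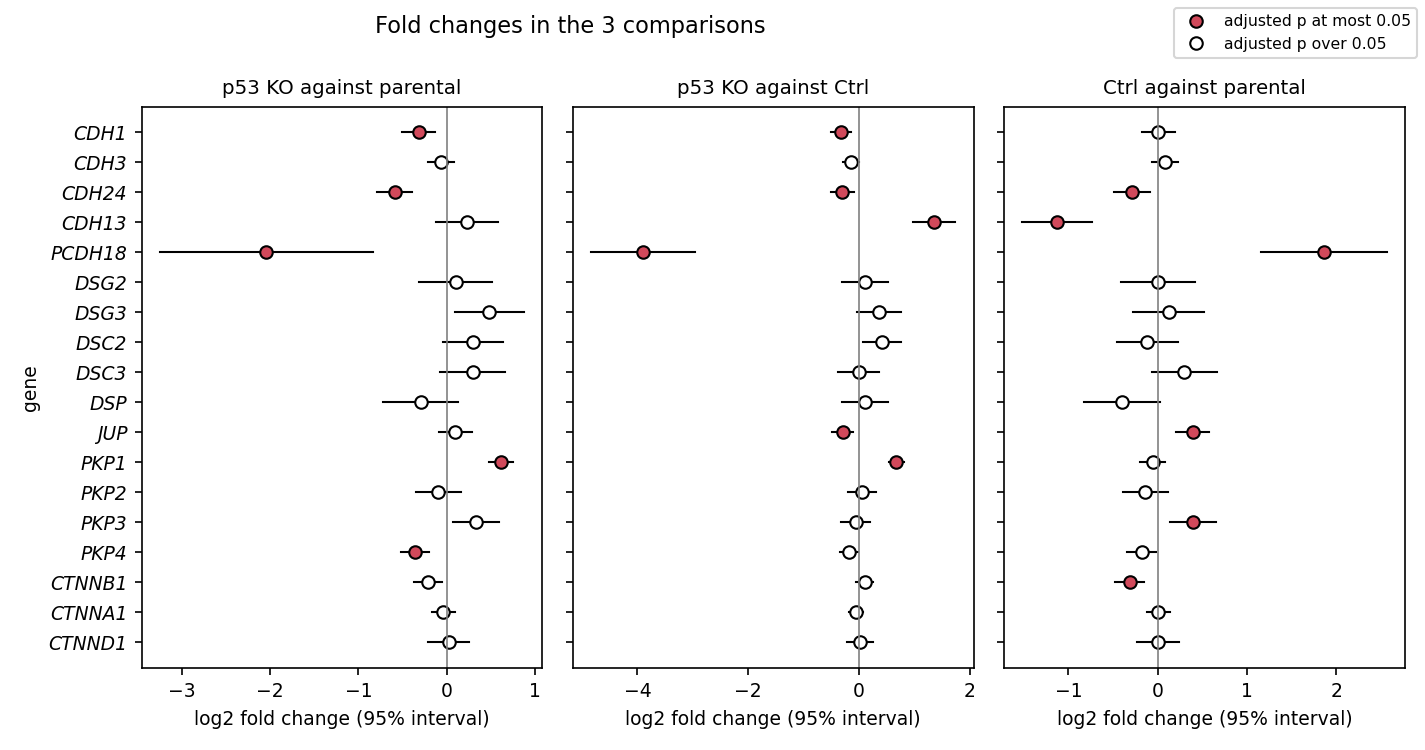
Log2 fold changes of the 18 genes in the 3 comparisons, with 95% intervals; filled points have an adjusted p of at most 0.05. PKP1 lies near 0.6 against both other lines, CDH13 and PCDH18 have the widest ranges, and the intervals of the desmogleins and desmocollins are broad.

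E-cadherin was measured at 361, 341 and 361 CPM in parental replicates 1 to 3, at 313, 383 and 372 CPM in Ctrl and at 298, 289.7 and 265 CPM in p53 KO libraries. Every p53 KO library was below every other library, although the highest p53 KO and the lowest Ctrl library, replicate 1, were close. The log2 fold change of CDH1 was -0.32 ± 0.08 (SE, adjusted p = 0.0245, edgeR) against parental and -0.33 ± 0.08 (adjusted p = 0.0140) against Ctrl. Leaving out single libraries moved the first of these between -0.36 and -0.27, and the call held in 4 of 9 such fits. It was lost when any 1 parental library, p53 KO replicate 2 or p53 KO replicate 3 was left out, with adjusted p from 0.0527 to 0.0985 (edgeR), and that against Ctrl without p53 KO replicate 3 (-0.28) or Ctrl replicate 2 (-0.27). Without Ctrl replicate 1 it was -0.32 (adjusted p = 0.000717) and against Ctrl -0.41 (adjusted p = 0.000151).

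P-cadherin, the gene next to CDH1 on chromosome 16, ends 9.82 kb before CDH1 begins. It was at 302, 286 and 282 CPM in parental, 326, 307 and 288 CPM in Ctrl and 279.7, 273 and 278 CPM in p53 KO libraries. The p53 KO libraries again lay below all 6 others, by a small margin. The log2 fold changes of CDH3 were -0.07 (95% interval -0.21 to 0.08) against parental and -0.15 (-0.29 to -0.00) against Ctrl, with adjusted p = 0.526 and 0.116, edgeR. The ratio of CDH3 to CDH1 in CPM averaged 0.819 ± 0.0324 for parental, 0.872 ± 0.147 for Ctrl and 0.977 ± 0.0652 for p53 KO cells. Its range in Ctrl, 0.775 to 1.04, covered most of the p53 KO range of 0.938 to 1.05, but only through Ctrl replicate 1. Ctrl replicates 2 (0.801) and 3 (0.775) lay below every p53 KO library. As a share of length-scaled cadherin RNA, CDH1 held 52.4% for parental, 52.0% for Ctrl and 49.0% for p53 KO cells, and CDH3 held 40.8%, 42.7% and 45.4%. Scaled by the longest transcript instead, the order in p53 KO turned, with CDH1 at 46.4% and CDH3 at 48.9%.

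CDH24, a type II classical cadherin, was at 26.1, 27.7 and 23.7 CPM in parental, 23.3, 19.8 and 20.4 CPM in Ctrl and 16.9, 17.2 and 17.4 CPM in p53 KO libraries. The groups of parental and p53 KO libraries were well apart, and all Ctrl libraries lay between them. Against parental, CDH24 fell by 0.59 ± 0.09 log2 (adjusted p = 0.00132, edgeR), a call that held in all 17 alternative fits. The smaller differences of -0.30 against Ctrl (adjusted p = 0.0317) and -0.29 for Ctrl against parental (adjusted p = 0.0454) held in 9 and 6 of 17, the first in 4 of 9 and the second in 1 of 9 fits that left out 1 library, without Ctrl replicate 1. The first was lost when parental replicate 1, Ctrl replicate 1 or any 1 p53 KO library was left out, with log2 fold changes of -0.31 to -0.23. Without Ctrl replicate 1, CDH24 in p53 KO against Ctrl was at -0.23 (adjusted p = 0.0522).

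T-cadherin (CDH13), which is held in the membrane by a lipid anchor and has no cytoplasmic tail, had the largest fold change of the 4 CDH genes tested. It was at 6.58, 5.12 and 6.51 CPM in parental, 2.96, 2.04 and 3.39 CPM in Ctrl and 6.81, 7.38 and 7.09 CPM in p53 KO libraries. Ctrl was the line that differed: its libraries were below all others, while p53 KO lay slightly above parental. CDH13 was 2.55-fold higher in p53 KO than in Ctrl (log2 fold change 1.35 ± 0.18, adjusted p = 0.000194, edgeR). For Ctrl against parental, the log2 fold change was -1.12 ± 0.18 (adjusted p = 0.00162), and for p53 KO against parental it was 0.23 (95% interval -0.12 to 0.58, adjusted p = 0.362). Both differences from Ctrl held in all 17 alternative fits.

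N-cadherin (CDH2) was near the limit of detection, with 2, 3 and 3 counts in parental, 0, 0 and 0 in Ctrl and 2, 1 and 2 in p53 KO libraries. No library exceeded 3 counts, so no fold is given and a difference between the lines was not detectable at this depth. Of the 18 other CDH genes that did not pass the filter, the highest counts were 14 for CDH23, a cadherin of the inner ear's tip links, 12 for CDH8, 9 for VE-cadherin (CDH5) and 7 for CDH26. CDH15, the cadherin of muscle, reached 3 counts, and CDH4, CDH12 and CDH16 reached 1. The genes CDH6, CDH7, CDH9, CDH10, CDH11, CDH17, CDH18, CDH19, CDH20 and CDH22 were at 0 in every library, which allows up to 3 counts in each.

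**Figure D3:**
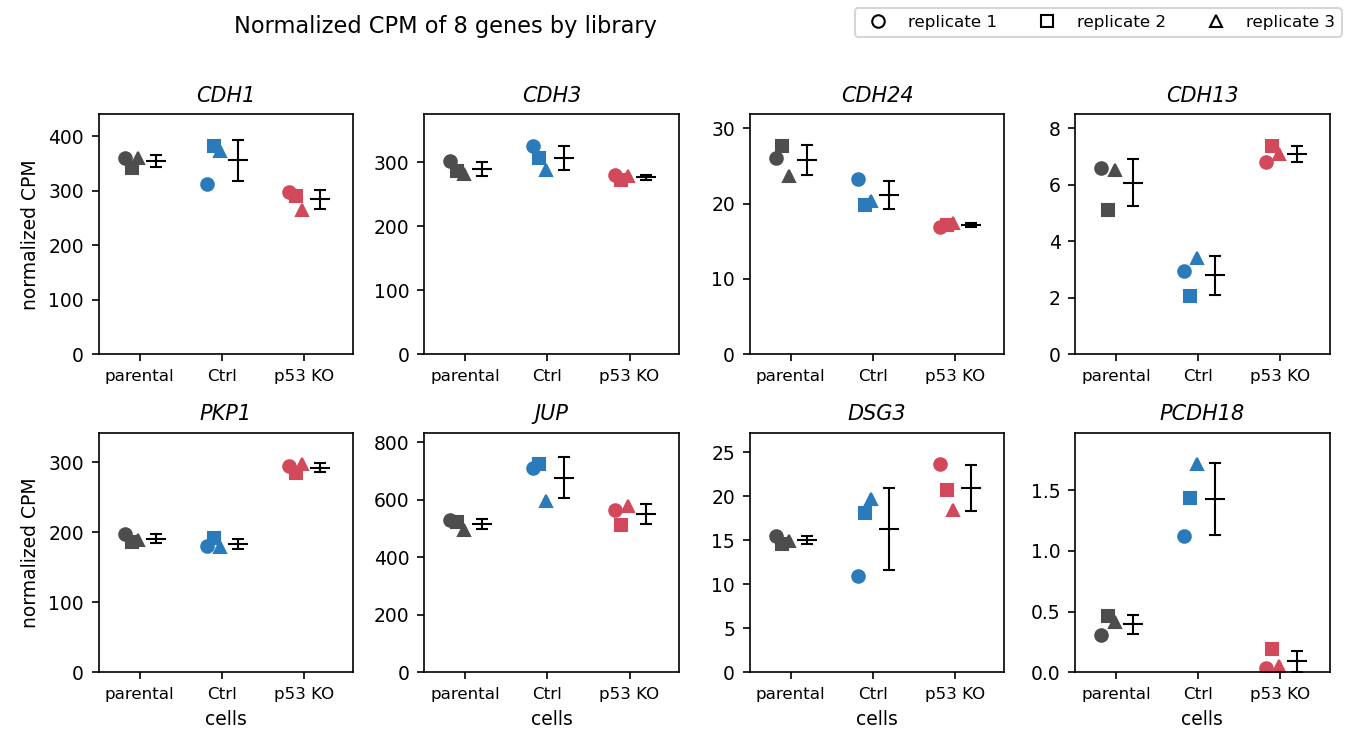
Normalized CPM of 8 genes in each library (points, symbol by replicate number) with the mean and SD of 3 libraries beside them, on linear axes from 0. PKP1 separates p53 KO from both other lines, CDH13 and JUP separate Ctrl from parental, and DSG3 shows the low Ctrl replicate 1.

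The 7 desmosomal cadherin genes lie in a cluster of 559.6 kb on chromosome 18 (30989365 to 31549008, GRCh38). DSG2, DSG3, DSC2 and DSC3 were expressed, while DSG1, DSG4 and DSC1, which mark the upper layers of epidermis or hair, were at 0 in every library. In the main fit by edgeR (all 9 libraries, filter on low counts, GC trend kept), none of the 4 passed in any comparison. For each of them Ctrl replicate 1 was the lowest of the 9 libraries. With the GC trend removed, chosen after seeing the data, DSG3 (0.50) and DSC2 (0.32) passed in p53 KO against parental (adjusted p = 0.0215 and 0.0310, edgeR). DSC2 also passed against Ctrl (0.30, adjusted p = 0.0310), and DSC3 in Ctrl against parental (0.43, adjusted p = 0.0167). Without p53 KO replicate 3, DSC2 passed against Ctrl (0.51, adjusted p = 0.0439). With no filter beyond 1 count, DSG3 passed in p53 KO against parental (adjusted p = 0.00195) and Ctrl (adjusted p = 0.0233), and DSC2 passed against Ctrl (adjusted p = 0.00261), as it did by DESeq2 (adjusted p = 0.0497). Without Ctrl replicate 1, DSG3 (0.49), DSC2 (0.30) and DSC3 (0.30) passed in p53 KO against parental (adjusted p = 0.00110, 0.0207 and 0.0341, edgeR). For each this was 1 of 9 fits that left out 1 library. These genes also passed with only the groups compared (adjusted p = 0.00156, 0.0272 and 0.0414, edgeR), and DSG2 passed in neither setting.

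DSG2, the desmoglein of simple and proliferating epithelium, was at 250.0, 246 and 258 CPM in parental, 163, 299 and 292 CPM in Ctrl and 298, 282 and 229.9 CPM in p53 KO libraries. Ctrl replicate 1 was the lowest and p53 KO replicate 3 the second lowest. The log2 fold change of DSG2 was 0.10 (95% interval -0.31 to 0.52) against parental and 0.10 (-0.31 to 0.52) against Ctrl. Without these 2 libraries, an alternative chosen after seeing the data, it was 0.20 ± 0.05 (adjusted p = 0.00553, edgeR) against parental and 0.23 ± 0.05 (adjusted p = 0.00322) for Ctrl against parental.

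DSG3, the desmoglein of the basal layers and the antigen in pemphigus vulgaris, was at 15.5, 14.6 and 14.9 CPM in parental, 11.0, 18.2 and 19.7 CPM in Ctrl and 23.7, 20.7 and 18.5 CPM in p53 KO libraries. All p53 KO libraries were above all parental libraries and overlapped Ctrl. The log2 fold change against parental was 0.48 ± 0.18 (adjusted p = 0.0878, edgeR), and without Ctrl replicate 1 and p53 KO replicate 3 it was 0.56 ± 0.08 (adjusted p = 0.000179). Against Ctrl it was 0.36 (95% interval -0.03 to 0.75), with adjusted p = 0.158.

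The desmocollins are the partners of the desmogleins in adhesion. DSC2 was at 39.6, 39.7 and 38.3 CPM in parental, 26.9, 41.0 and 40.4 CPM in Ctrl and 55.7, 47.4 and 40.9 CPM in p53 KO libraries. The p53 KO range began just above the parental one and overlapped Ctrl. DSC2 had a log2 fold change of 0.29 (95% interval -0.05 to 0.63) against parental and 0.41 (0.07 to 0.75) against Ctrl. Without the 2 libraries these were 0.39 ± 0.07 (adjusted p = 0.000752, edgeR) and 0.34 ± 0.08 (adjusted p = 0.00293). DSC3 was at 24.9, 21.0 and 22.9 CPM in parental, 20.6, 32.9 and 31.0 CPM in Ctrl and 31.1, 29.6 and 23.5 CPM in p53 KO libraries. The p53 KO libraries lay within the Ctrl range, with a log2 fold change of -0.01 (95% interval -0.37 to 0.36) between them. Without the 2 libraries, DSC3 was higher than in parental in both p53 KO (0.40 ± 0.08, adjusted p = 0.00144, edgeR) and Ctrl (0.48 ± 0.08, adjusted p = 0.000563).

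Summed over these 4 genes, desmosomal cadherin RNA came to 328 ± 6.29 CPM for parental, 332 ± 95.3 CPM for Ctrl and 367 ± 49.1 CPM for p53 KO cells. The Ctrl libraries spanned 222 to 391 CPM. In Ctrl and p53 KO the makeup was steadier than the sum. All 4 genes lay below the group mean in Ctrl replicate 1 and p53 KO replicate 3, whereas in parental libraries their deviations differed in sign. DSG2 held 75.0 ± 0.793% of length-scaled desmosomal cadherin RNA for parental, 73.4 ± 1.47% for Ctrl and 71.7 ± 0.626% for p53 KO cells, and DSG3 held 7.63 ± 0.175%, 8.13 ± 0.400% and 9.48 ± 0.390%.

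**Figure D4:**
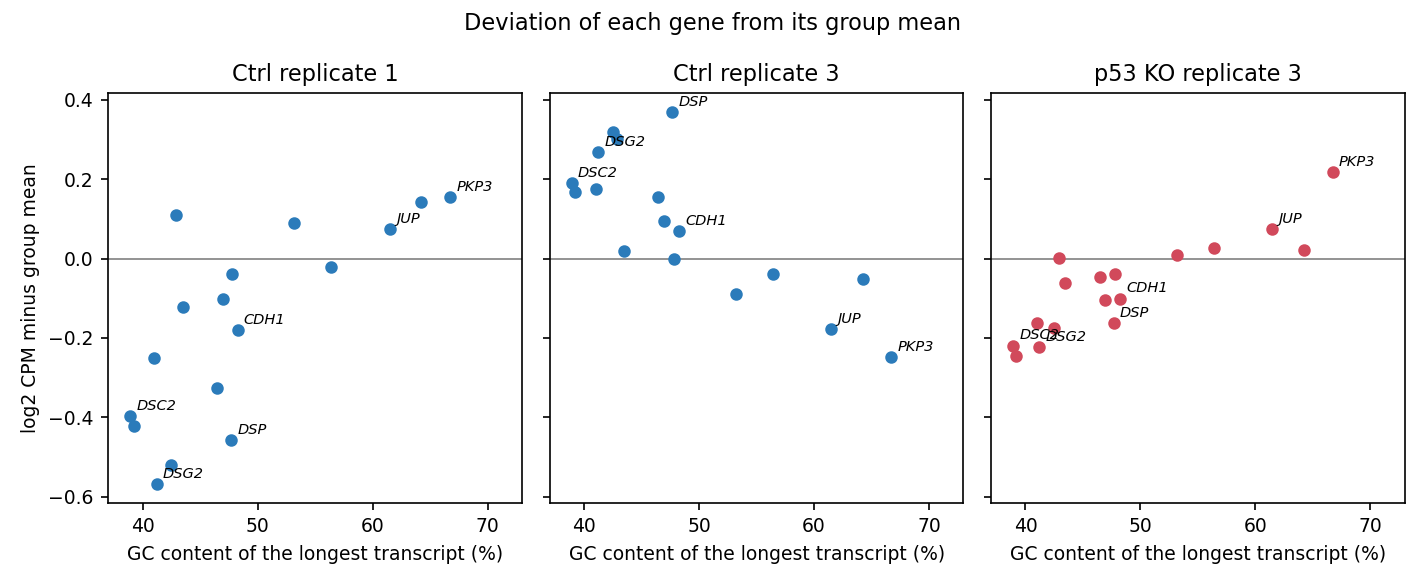
Deviation of log2 CPM from the group mean against the GC content of the longest transcript, for 17 genes (PCDH18, with few counts, is not drawn) in Ctrl replicates 1 and 3 and p53 KO replicate 3. DSG2, DSG3, DSC2 and DSC3 lie below 0 in Ctrl replicate 1 and p53 KO replicate 3 and above it in Ctrl replicate 3, whereas CDH13, also of low GC content, lies below 0 in none of them. The deviations of a gene balance out within a line, so Ctrl replicates 1 and 3 are not independent.

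The deviations of the junction genes went with GC content in these libraries. Transcript length, which had a contrast of the same sense in them, was not separated from it. Over all 18 genes, Pearson's r between deviation and GC content was 0.736 in Ctrl replicate 1, 0.863 in p53 KO replicate 3 and -0.813 in Ctrl replicate 3. Over the 10533 genes with a mean log2 CPM over 2, it was 0.558, 0.558 and -0.523 in the same libraries. PCDH18 lies under that cut. These are descriptions across genes of 1 library, which are not independent replicates. The deviations of a gene balance out within a line, so the opposite sign in Ctrl replicate 3 follows in part from Ctrl replicate 1. In Ctrl replicate 1, 13 of the 18 genes were below the group mean and 7 deviated by more than 0.3 log2. With the GC trend of each library removed, also chosen after seeing the data, 9 of 18 genes changed in p53 KO against parental, 9 against Ctrl and 7 in Ctrl against parental, beside 24.1%, 33.9% and 25.3% of all genes. With both libraries left out, 10, 8 and 9 changed, beside 30.8%, 38.1% and 28.5%. The parts of GC content and of transcript length in the differences between lines were not tested.

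Plakophilin 1 strengthens desmosomes by clustering desmosomal cadherins and desmoplakin. In the main fit it was the only one of the 18 genes called higher in p53 KO than in both other lines. That fit used the filter on low counts and all 9 libraries, without removing the GC trend. With that trend removed, DSC2 was called higher against both as well. PKP1 lies on chromosome 1 (201283452 to 201332993, plus strand, GRCh38). It was at 198, 186 and 188 CPM in parental, 180.5, 191 and 178 CPM in Ctrl and 294, 285 and 297 CPM in p53 KO libraries. The p53 KO libraries were far above all others, and parental and Ctrl libraries overlapped. PKP1 was 1.53-fold higher than in parental (log2 fold change 0.61 ± 0.06, adjusted p = 9.58e-05, edgeR) and 1.59-fold higher than in Ctrl (0.67 ± 0.06, adjusted p = 1.98e-05). Over 17 alternative fits, these ranged from 0.57 to 0.64 and from 0.64 to 0.70, and all passed the threshold. For Ctrl against parental, the log2 fold change was -0.06 (95% interval -0.19 to 0.08). Of length-scaled plakophilin RNA, PKP1 held 23.1 ± 0.493% for parental, 19.9 ± 1.09% for Ctrl and 29.4 ± 1.41% for p53 KO cells. The 47 tested genes within 5 Mb of PKP1 that had a mean log2 CPM over 2 had median log2 fold changes of -0.03 against parental and 0.03 against Ctrl.

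Plakophilin 3, the most widespread plakophilin of epithelial desmosomes, was at 250.0, 245 and 252 CPM in parental, 362, 347 and 274 CPM in Ctrl and 299.6, 279 and 362 CPM in p53 KO libraries. Every Ctrl and p53 KO library lay above every parental one. PKP3 was higher in Ctrl than in parental by 0.40 ± 0.12 log2 (adjusted p = 0.0357, edgeR). Its 0.33 ± 0.12 for p53 KO against parental did not pass (adjusted p = 0.0722), but did without Ctrl replicate 1 (0.33 ± 0.09, adjusted p = 0.0141). PKP3 has the highest GC content of the 18 genes, 66.7%, and the gain over parental in Ctrl was called in 4 of 9 fits that left out 1 library. It was lost when any 1 parental library, p53 KO replicate 1 or Ctrl replicate 2 was left out, at 0.35 to 0.40. Its 49 neighbours within 5 Mb, by the same cut on mean log2 CPM, also had a median of 0.18 in Ctrl against parental, with 36 of them higher.

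PKP2, a plakophilin of simple epithelia and heart, was at 137, 135 and 129 CPM in parental, 95.6, 135 and 133 CPM in Ctrl and 125, 129 and 121 CPM in p53 KO libraries. Apart from Ctrl replicate 1 the values were close, with log2 fold changes of -0.09 (95% interval -0.35 to 0.16) and 0.05 (-0.21 to 0.30) in p53 KO against parental and Ctrl. PKP4, which is found at adherens junctions as well as desmosomes, ranged from 221 to 229 CPM in parental, 184 to 211 CPM in Ctrl and 162 to 184 CPM in p53 KO libraries. It fell by 0.36 ± 0.07 log2 against parental (adjusted p = 0.00638, edgeR) in all 17 alternative fits too, while its -0.18 against Ctrl did not pass (adjusted p = 0.0924). It passed in 3 other fits by edgeR, without Ctrl replicate 1 (-0.23, adjusted p = 0.0133), without that library and p53 KO replicate 3 (-0.18, adjusted p = 0.0170) and with the GC trend of each library removed (-0.25, adjusted p = 0.00908).

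**Figure D5:**
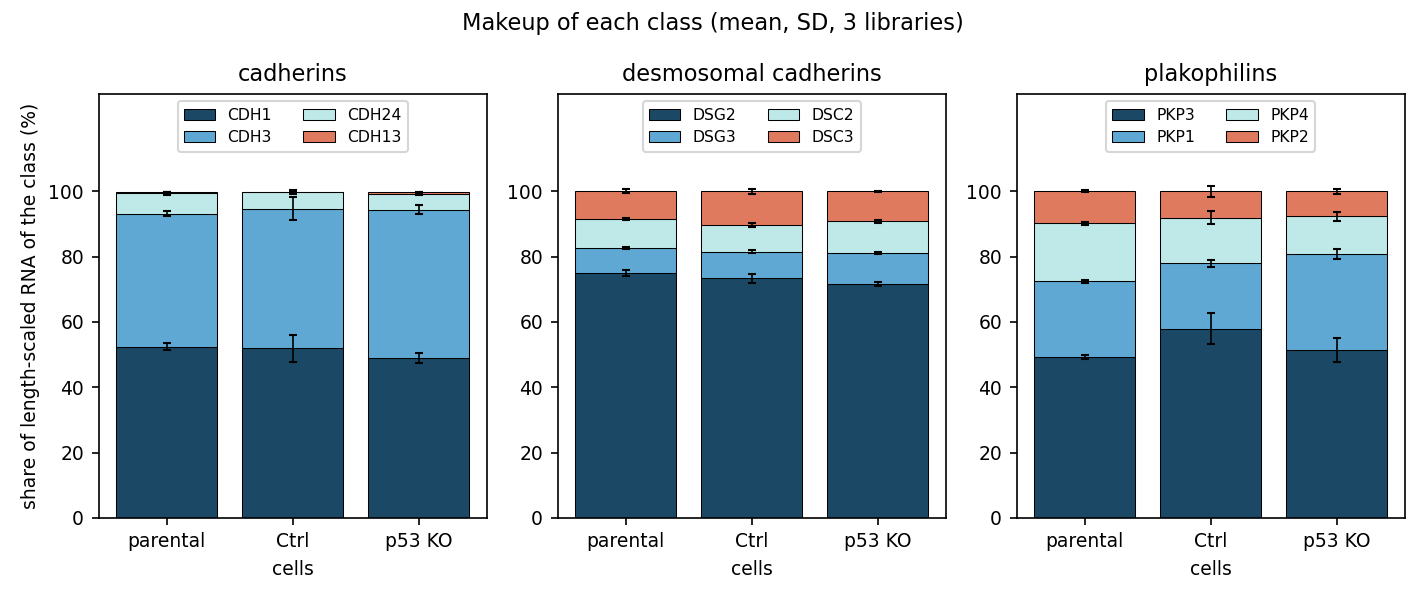
Share of each gene in the length-scaled RNA of its class (CPM per kb of exon), as stacked bars of the mean over 3 libraries with SD, for cadherins, desmosomal cadherins and plakophilins. PKP1 takes 29.4% of plakophilin RNA in p53 KO against 23.1% in parental and 19.9% in Ctrl. PKP3 holds 49.4% in parental and 58.0% in Ctrl, and PKP4 17.7% in parental and 11.5% in p53 KO.

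Desmoplakin, the plakin that anchors the plaque to keratins, varied widely within parental and Ctrl. DSP was at 697, 464 and 563 CPM in parental, 309, 451 and 548 CPM in Ctrl and 494, 495 and 417 CPM in p53 KO libraries. The groups overlapped throughout. In p53 KO the log2 fold changes were -0.29 (95% interval -0.72 to 0.13) against parental and 0.11 (-0.32 to 0.53) against Ctrl. For Ctrl against parental it was -0.40 (95% interval -0.82 to 0.02, adjusted p = 0.153, edgeR). That difference passed with no filter beyond 1 count (-0.40, adjusted p = 0.000302) and without Ctrl replicate 3 (-0.59, adjusted p = 0.0360). With no filter beyond 1 count, p53 KO against parental passed too (-0.29, adjusted p = 0.0160).

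Plakoglobin, shared by both junction types and a close relative of β-catenin, was at 528, 523 and 494 CPM in parental, 709, 724 and 595 CPM in Ctrl and 563, 510.3 and 579 CPM in p53 KO libraries. All Ctrl libraries were above all others. JUP was higher in Ctrl than in parental by 0.39 ± 0.09 log2 (adjusted p = 0.00965, edgeR), in all 17 alternative fits as well. It was lower in p53 KO than in Ctrl by -0.30 ± 0.08 (adjusted p = 0.0224), which held in 12 of 17 and was lost without p53 KO replicates 1 (-0.31) or 2 (-0.24) or Ctrl replicate 2 (-0.25). Against parental, p53 KO was at 0.10 (95% interval -0.09 to 0.28).

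β-catenin was at 294, 283 and 302 CPM in parental, 216, 252 and 238 CPM in Ctrl and 259, 256 and 242 CPM in p53 KO libraries. Here parental was above both other lines, which overlapped. CTNNB1 was lower in Ctrl than in parental by -0.31 ± 0.07 log2 (adjusted p = 0.0127, edgeR). Without parental replicate 3 it was at -0.29 (adjusted p = 0.0551). In p53 KO against parental it was at -0.21 ± 0.07 (adjusted p = 0.0629), and without Ctrl replicate 1 the same difference passed (adjusted p = 0.00763). The ratio of JUP to CTNNB1 in CPM averaged 1.76 ± 0.112 for parental, 2.88 ± 0.394 for Ctrl and 2.18 ± 0.200 for p53 KO cells, with no overlap between the lines.

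α-catenin, the link from β-catenin to actin, differed little between the libraries. CTNNA1 was at 530, 518 and 537 CPM in parental, 517, 547 and 531 CPM in Ctrl and 533, 507 and 499 CPM in p53 KO libraries. The 95% intervals of its log2 fold change were -0.17 to 0.09 against parental and -0.18 to 0.08 against Ctrl. CTNND1, whose p120-catenin holds cadherins at the membrane, was at 410.3, 415 and 411 CPM in parental, 344, 430.6 and 462 CPM in Ctrl and 445, 438 and 372 CPM in p53 KO libraries. Its fold changes were 0.02 (95% interval -0.21 to 0.26) and 0.02 (-0.21 to 0.25) log2. The exons of CTNND1 overlap those of other genes on the same strand in GENCODE release 44. The one that was counted shares 1926 bases and had 0 to 2 counts, and the one that shares 5952 bases was not counted. PKP2 likewise shares 424 bases with a gene on the same strand that had 1 to 7 counts. The counts of CTNND1 and PKP2 are therefore less certain.

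PCDH18, a protocadherin of the δ2 group, was the exception in size but had few reads. It had 8, 12 and 9 counts in parental, 22, 41 and 45 in Ctrl and 1, 5 and 1 in p53 KO libraries, or 0.394 ± 0.0799, 1.43 ± 0.297 and 0.0911 ± 0.0862 CPM. The 3 lines did not overlap, with Ctrl highest and p53 KO lowest. The log2 fold changes were -2.04 ± 0.55 (adjusted p = 0.0252, edgeR) against parental, -3.90 ± 0.42 (adjusted p = 6.14e-05) against Ctrl and 1.86 ± 0.32 (adjusted p = 0.00262) for Ctrl against parental. The first of these held in 5 of 9 fits that left out 1 library, and was lost without parental replicates 2 (-1.91) or 3 (-2.01) or p53 KO replicates 1 (-1.58) or 3 (-1.83). Over these fits it ranged from -3.14 to -1.58, and the log2 fold change against Ctrl from -5.00 to -3.44.

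By position of the libraries, 6 of the 18 genes (33.3%) had all p53 KO libraries outside the range of the other 6, beside 22.0% of all genes. PKP1 and CDH13 were above, as were 11.9% of all genes, and CDH1, CDH3, CDH24 and PCDH18 were below, as were 10.1%.

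Other genes of the junctions and of the epithelial state were taken from lists, whose members were set from general knowledge. Of 12 tested partners of the adherens junction, 2 were higher and 2 lower in p53 KO than in parental, and 2 were higher and 5 lower than in Ctrl, beside 18.1% and 29.2% of all genes changed. The list's median was -0.17 and -0.16, where all genes had 0.01 and 0.01. NECTIN3, a nectin that starts cell contacts, was at 0.692 to 1.08 CPM in parental, 3.16 to 4.60 in Ctrl and 0.268 to 0.685 in p53 KO libraries, and fell by 3.09 ± 0.28 log2 against Ctrl (adjusted p = 1.96e-05, edgeR), but it is on the study's own list too. NECTIN4 was higher than in parental (0.58) and lower than in Ctrl (-0.52). Afadin, listed as MLLT4, was lower against both (-0.65 and -0.49), and vinculin (VCL), an actin linker, was higher than in Ctrl (0.65).

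Of 7 further genes of desmosomes and plakins, 1 was higher and 0 lower against parental, and 1 higher and 2 lower against Ctrl, where 18.1% and 29.2% of all genes changed. The one that rose was PERP, a desmosomal membrane protein and a known target of p53, by 0.61 ± 0.07 log2 against parental (adjusted p = 0.000196, edgeR) and 0.30 ± 0.07 against Ctrl (adjusted p = 0.00603). Periplakin (PPL) and envoplakin (EVPL) were lower than in Ctrl, by -0.37 and -0.27.

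Of 11 tested protocadherins and other cadherin relatives, 1 was higher and 3 lower against parental, and 0 were higher and 3 lower against Ctrl, shares to be read beside 18.1% and 29.2% of all genes. PCDH7 fell by 1.20 ± 0.14 log2 against parental (adjusted p = 0.000242, edgeR) and dropped by 1.52 ± 0.14 against Ctrl (adjusted p = 1.74e-05), but it is on the study's own list from these libraries too. FAT4, a large cadherin of planar polarity, had 6 to 11 counts in parental, 8 to 24 in Ctrl and 0 to 2 in p53 KO libraries, and was called lower in p53 KO against both. It passed the low-count filter only through libraries of the other lines, where it is higher, so these calls are not independent evidence. PCDH1 was higher than in parental in p53 KO (0.95) and in Ctrl (1.09), and CELSR1 was lower in both (-0.42 and -0.36).

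Of 14 tested transcription factors of the epithelial or mesenchymal state, 5 were higher and 2 lower in p53 KO than in parental, and 3 were higher and 4 lower than in Ctrl. These calls stood beside 18.1% and 29.2% of all genes. GRHL3, an epidermal grainyhead factor on the study's own list from these libraries, had the largest change of them, from 14.6 ± 0.808 CPM in parental and 26.2 ± 0.569 in Ctrl to 3.53 ± 0.834 in p53 KO, a fall by 2.04 ± 0.14 and 2.88 ± 0.14 log2 (adjusted p = 6.29e-06 and 1.78e-07, edgeR). The epithelial factor OVOL2 was higher than in parental (1.45), the E-cadherin repressor ZEB2 was higher than in parental (0.92), and ELF3 was lower than in Ctrl (-0.79). The other calls are named after their values were seen. Of epithelial factors, KLF4 was higher against parental (0.62) and Ctrl (0.61), while OVOL1 (-0.49) and GRHL1 (-0.44) were lower than in Ctrl. Of the E-cadherin repressors, SNAI2 was higher against both (0.42 and 0.92), as was TWIST1 (0.62 and 0.74), and SNAI1 was lower than in parental (-0.55).

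Of 4 tested mesenchymal proteins, 2 were higher and 1 lower against parental, and 3 higher and 1 lower against Ctrl, beside 18.1% and 29.2% of all genes. Vimentin (VIM) rose by 2.17 ± 0.35 log2 against parental (adjusted p = 0.00155, edgeR) and 0.85 ± 0.29 against Ctrl (adjusted p = 0.0494), from 6 to 13 counts in parental and 21 to 25 in Ctrl to 38 to 49 in p53 KO libraries, so that it stayed a gene of low abundance. S100A4 was higher against both (0.66 and 0.47), tenascin C (TNC) was higher than in Ctrl (1.06), and fibronectin (FN1) was lower against both (-0.68 and -0.64).

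Of 7 genes of cadherin cleavage and turnover, 0 were higher and 2 lower against parental, and 0 higher and 1 lower against Ctrl, while 18.1% and 29.2% of all genes changed. CBLL1, a ubiquitin ligase for E-cadherin, fell by 0.54 ± 0.12 log2 against parental (adjusted p = 0.00835, edgeR), and the endocytic adaptor NUMB was lower too (-0.33), while ADAM15 was lower than in Ctrl (-0.39). Of 7 tested target genes of β-catenin, 0 were higher and 2 lower against parental, CCND1 (-0.39) and ZNRF3 (-0.34), and MYC alone was lower than in Ctrl (-0.26), again beside 18.1% and 29.2% of all genes. AXIN2, the most general of these targets, had at most 4 counts.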

How the data were processed

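Poly(A) RNA of A431 parental, Ctrl and p53 KO cells was measured, with 3 libraries per group. Strand-specific libraries were made from 200 ng of total RNA with 14 PCR cycles. The authors aligned reads with STAR 2.5.1b to GRCh38 and deposited whole-number counts per gene, made by featureCounts on Ensembl release 85 and not normalized; the featureCounts version and strand setting are not given in the sources used here. Counting error alone limits values of a few counts.

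Counts were analysed in R 4.3.3. Genes were filtered with filterByExpr in edgeR 4.0.16 (minimum count of 10), TMM-normalized and fitted with 1 mean per group over all 9 libraries. The quasi-likelihood test of edgeR compared the groups, p-values were adjusted by Benjamini-Hochberg over all 14513 genes, and a gene changed at an adjusted p of at most 0.05. The fit recovered known changes when tested on simulated data. Those changes were larger than most found here and no simulated library stood apart, so this does not show how well smaller changes are found. Levels per kb use exon length from GENCODE release 44. The SD and the GC and length contrasts of libraries, and the neighbourhoods, used only genes with a mean log2 CPM over 2. The genes, the lists and the tests were chosen with earlier results of these data known. All genes of the family that passed the filter are named, those of interest with every library, and up to 4 changed genes of each list by size of change over the 3 comparisons; 6 transcription factors were added after their values were seen. Alternatives were DESeq2 1.42.0, its size factors, other filters, a replicate block, only the groups compared, a log2 fold change of 1, another exon length, wider neighbourhoods and each library left out. Leaving out both Ctrl replicate 1 and p53 KO replicate 3 and removing the GC trend were added after seeing the data. The level of the targeted gene is not reported here. Antisense and pseudogene partners of the genes had at most 31 counts.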

Additional observations from a re-analysis of the deposited data

Results flagged for a closer look

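PCDH18 moved in opposite directions against parental cells in the other lines, lower in p53 KO (-2.04) and higher in Ctrl (1.86) on the log2 scale. The difference between p53 KO and Ctrl was -3.90, from 1, 5 and 1 counts in p53 KO and 22, 41 and 45 counts in Ctrl libraries. It is the difference of the 2 values that drew attention to the gene, so its p-value is not an independent test, and the gene passed the low-count filter through Ctrl alone.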

How the results depend on the processing

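Over 54 fold changes of the 18 genes, 827 of 914 values under other settings stayed on their side of the threshold, 43 lost a call, 44 gained one and 0 called values turned. Against parental, p53 KO changed 8 genes with no filter beyond 1 count, 9 with only the groups compared, 10 without both Ctrl replicate 1 and p53 KO replicate 3, 9 with the GC trend removed and 1 at a log2 fold change of at least 1, with 3 to 10 when single libraries were left out (10 without Ctrl replicate 1, 3 without parental replicate 2, parental replicate 3 or p53 KO replicate 3). Against Ctrl there were 2 at a log2 fold change of at least 1 and 4 to 7 with single libraries left out. For Ctrl against parental there were 2, and 3 to 8 (3 without parental replicate 3). PCDH18 has under 10 counts in some libraries, so counts over 1.5 were 0 with at least 10 counts in every library, in all 3 comparisons. They were otherwise 0 for p53 KO against parental with only the groups compared and 0 to 1 with single libraries left out, 1 to 2 against Ctrl (2 without Ctrl replicate 3), and 2 for Ctrl against parental with no filter. The cause was not tested. Beyond the main fit, shares of all genes were taken only for the 2 settings added after seeing the data. In p53 KO against parental these were 30.8% without both libraries and 24.1% with the GC trend removed. For the other settings no such share was taken, so their counts are not a result about these 18 genes.

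No pairing by replicate number was seen: deviations of same-numbered libraries correlated at -0.348 to 0.0409 and 0 of 9 pairs exceeded 0.1. These deviations also carry the GC and length contrasts of single libraries, so they cannot exclude a pairing. With the replicate block, 4, 4 and 4 genes changed, and the share of all genes was not taken for this setting either.

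With the length of the longest transcript, JUP held 71.0%, 79.9% and 75.2% of JUP and CTNNB1 RNA in parental, Ctrl and p53 KO, DSG2 83.2%, 82.0% and 80.7% of desmosomal cadherins, and PKP1 18.1%, 15.9% and 24.0% of plakophilins. CDH1 held 50.1% in parental and 46.4% in p53 KO and CDH3 44.3% and 48.9%, so that their order in p53 KO turned.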
